A study of Mus musculus with 9 samples.

Results

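Amino acids cross cell membranes through solute carriers, and the carriers of amino acids and related small molecules fall into 7 gene families here, named Slc1a, Slc3a, Slc6a, Slc7a, Slc36a, Slc38a and Slc43a. Members were taken by symbol from the platform's probe table, as every gene whose symbol starts with one of these family names and a number. This took 63 of 18193 genes measured, of which 60 were transporter genes and 3 were opposite-strand genes that carry a transporter's name. The 60 transporter genes comprised 7 of Slc1a, 2 of Slc3a, 20 of Slc6a, 15 of Slc7a, 4 of Slc36a, 9 of Slc38a and 3 of Slc43a. Where a gene had more than 1 probe set, as 31 of the 60 did, the brightest over all 9 arrays stood for it.

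The cells were primary white adipocytes, differentiated in culture from stromal-vascular cells of the inguinal fat depot; the donors were male C57BL6 mice aged 30 to 35 days, with no genetic change named. All groups, controls included, had the same induction over 2 days, with rosiglitazone at 1 µM, isobutylmethylxanthine at 0.5 µM, insulin at 5 µg/ml and dexamethasone at 1 µM. Rosiglitazone and insulin alone followed, and from day 6 the cells had plain culture medium. On day 8, 3 samples were exposed to PTH(1-34) and 3 to PTHrP(1-34), each at 100 ng/ml for 4 h, and 3 were controls, for which the labels name no vehicle. Parathyroid hormone (PTH) and its relative PTHrP (parathyroid hormone-related protein) share a receptor, and (1-34) denotes the amino-terminal fragment of each peptide. The replicates are labelled as biological without a statement on separate mice or cultures, so the p-values measure the spread between these samples, which may be partly technical.

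The families differ in what they carry and in what drives them. Slc1a carriers take up glutamate or small neutral amino acids with sodium, Slc6a carriers take up glycine, proline, taurine, creatine, betaine and the monoamine transmitters with sodium and chloride, and Slc38a carriers move glutamine and other small neutral amino acids. Slc7a carriers exchange or take up cationic and large neutral amino acids, many of them only when bound to an Slc3a heavy chain. Within Slc36a, Slc36a1 and Slc36a2 use protons, whereas Slc43a members need no ion. When amino acids run short, uncharged tRNAs activate the kinase encoded by Eif2ak4, and the transcription factor Atf4 then raises a set of genes that includes several of these carriers. The receptor for PTH and PTHrP raises cAMP, which acts on transcription through factors that bind the cAMP response element.

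Across the 60 transporter genes, 3 fell and none rose with PTH, and 4 fell and 2 rose with PTHrP. Slc7a1, Slc6a9 and Slc1a6, which encode carriers of cationic amino acids, of glycine and of glutamate, fell with both peptides, by 0.54 to 0.76 on the log2 scale. Slc6a6, the taurine transporter, fell with PTHrP, and Slc36a4 and Slc6a16 rose with PTHrP. A change here is the difference in mean log2(intensity + 16) from the controls, tested with limma over all genes, and a gene is said to rise or fall where the Benjamini-Hochberg adjusted p was below 0.05. Over all 18193 genes, 2.96% rose and 3.14% fell with PTH, and 2.54% rose and 3.03% fell with PTHrP. The other 57 transporter genes for PTH and 54 for PTHrP did not pass. An unadjusted p below 0.05 was seen for 16 of the 60 with PTH and 15 of the 60 with PTHrP, those that passed included, beside 3458 and 3327 of all 18193 genes. The median change over the 60 genes was -0.004 with PTH and 0.002 with PTHrP, beside -0.0027 and -0.005 over all genes.

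The promoters of the 3 genes that fell with both peptides are shown because cAMP and Atf4 both act on transcription through short sequence elements. The promoter of Slc7a11, a cystine carrier widely used as a readout of Atf4, is shown beside them for comparison. Each line gives the 250 bases before an annotated start, read 5′ to 3′ along the gene's strand, from RefSeq on GRCm38.p6, and capitals mark a match to a searched element. The Slc7a1 stretch lies at chr5:148399905-148400154 on the minus strand, that of Slc6a9 at chr4:117849100-117849349 on the plus strand, that of Slc1a6 at chr10:78780246-78780495 on the plus strand and that of Slc7a11 at chr3:50443614-50443863 on the minus strand.
Slc7a1: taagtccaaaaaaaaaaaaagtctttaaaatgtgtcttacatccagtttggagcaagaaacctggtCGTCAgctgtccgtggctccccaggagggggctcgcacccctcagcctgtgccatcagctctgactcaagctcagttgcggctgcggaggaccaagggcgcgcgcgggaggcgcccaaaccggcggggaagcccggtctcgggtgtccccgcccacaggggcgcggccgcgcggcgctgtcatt
Slc6a9: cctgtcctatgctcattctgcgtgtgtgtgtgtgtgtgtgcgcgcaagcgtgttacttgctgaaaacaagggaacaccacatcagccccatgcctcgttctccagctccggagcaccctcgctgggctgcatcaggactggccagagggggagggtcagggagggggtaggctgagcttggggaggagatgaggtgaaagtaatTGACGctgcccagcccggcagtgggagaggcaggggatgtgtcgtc
Slc1a6: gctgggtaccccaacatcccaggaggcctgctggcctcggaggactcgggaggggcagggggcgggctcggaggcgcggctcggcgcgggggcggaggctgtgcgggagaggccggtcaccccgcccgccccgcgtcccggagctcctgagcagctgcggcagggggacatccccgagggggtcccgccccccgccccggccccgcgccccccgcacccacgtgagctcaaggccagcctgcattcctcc
Slc7a11: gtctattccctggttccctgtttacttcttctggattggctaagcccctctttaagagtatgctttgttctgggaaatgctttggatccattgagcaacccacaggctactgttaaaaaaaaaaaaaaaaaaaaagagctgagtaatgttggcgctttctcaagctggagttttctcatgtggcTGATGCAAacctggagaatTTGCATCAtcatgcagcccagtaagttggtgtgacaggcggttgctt

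On both strands, 4 spellings were searched: TGACGTCA, the full cAMP response element, TGACG, its first 5 letters (contained in the full element), TGATGCAA, a C/EBP-ATF element of the kind Atf4 binds, and TGATGNAAT, another spelling of that element. Of the 60 transporter genes, 43 had a promoter entry, with 64 starts. The full cAMP element lay at 1 of the 64 starts, that of Slc38a6, and at 1.55% of all 32851 starts. The short form lay at 14 of the 64 starts and at 17.8% of all starts. It lay 184 bases before 1 of the 2 starts of Slc7a1, as CGTCA, and 46 bases before 1 of the 3 starts of Slc6a9, which are the starts shown. TGATGCAA lay at 2 of the 64 starts, those of Slc7a11 and Slc7a7, and at 0.791% of all starts, and Slc7a11 held it on each strand, 66 and 47 bases before its start. TGATGNAAT lay at 1 of the 64, that of Slc6a21, and at 0.816% of all starts. The Slc1a6, Slc36a4 and Slc6a16 windows held none of the 4 spellings, and Slc6a6 was among the genes not matched in the promoter table. A match describes the letters in the window and shows no binding. Bases after the start, bases farther before it and other spellings were not searched. The lack of a match therefore does not show that a gene lacks such an element.

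Slc7a1 (Entrez gene 11987) encodes the main carrier of arginine and lysine into most cells outside the liver. Its signal was 802, 827 and 760 on the control arrays, 528, 488 and 483 with PTH, and 484, 473 and 503 with PTHrP. Every treated array lay below every control array, and the arrays of the 2 peptides overlapped. The mean fell from 796 ± 33.6 in controls to 500 ± 24.9 with PTH and 487 ± 15.3 with PTHrP (SD, n = 3). This was a change of -0.66 ± 0.06 (SE, limma adjusted p = 0.000544) with PTH and of -0.69 ± 0.06 (adjusted p = 0.000402) with PTHrP. A second probe set of the gene gave changes of -0.68 and -0.68, and the dimmest of its 3 probe sets, at a control mean of 28.5, gave 0.01 and 0.07. With the 3 probe sets averaged, the changes were -0.44 and -0.43 and still passed.

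Slc6a9 (Entrez gene 14664) encodes the glycine transporter that draws glycine into cells together with sodium and chloride. Its signal was 237, 261 and 250 on the control arrays, 131, 135 and 155 with PTH, and 144, 166 and 164 with PTHrP. All 6 treated arrays lay below the lowest control, and those of the 2 peptides overlapped. The mean fell from 249 ± 11.8 to 141 ± 13.0 with PTH and 158 ± 12.2 with PTHrP (SD, n = 3), a change of -0.76 ± 0.08 (SE, adjusted p = 0.00135) and of -0.61 ± 0.08 (adjusted p = 0.0039). The gene's other probe set did not follow, with changes of 0.00 (adjusted p = 0.991) and -0.06 (adjusted p = 0.781) around a control mean of 144. When the probe sets of each gene were averaged, the Slc6a9 change was -0.38 with PTH and -0.34 with PTHrP and still passed. The annotation used here does not say which transcripts either probe set reads.

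Slc1a6 (Entrez gene 20513) encodes a glutamate and aspartate carrier best known from cerebellar Purkinje cells. The control arrays gave 194, 198 and 197, the PTH arrays 129, 143 and 120, and the PTHrP arrays 127, 127 and 118. Again no treated array reached the controls, and the 2 peptides overlapped. The mean fell from 196 ± 2.08 to 131 ± 11.6 with PTH and 124 ± 4.82 with PTHrP (SD, n = 3). The changes were -0.54 ± 0.06 (SE, adjusted p = 0.00265) and -0.60 ± 0.06 (adjusted p = 0.00145). The gene had 1 probe set, so no other reading of it could be compared.

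Slc6a6 (Entrez gene 21366) encodes the taurine transporter. Its signal was 1368, 1348 and 1304 in controls, 1147, 1147 and 1132 with PTH, and 1001, 1061 and 1165 with PTHrP. All treated arrays lay below the controls, and the PTHrP arrays were spread on both sides of the PTH arrays. The means were 1340 ± 32.4 in controls, 1142 ± 8.57 with PTH and 1076 ± 82.9 with PTHrP (SD, n = 3). The change passed with PTHrP (-0.31 ± 0.06 SE, adjusted p = 0.0216) and did not pass with PTH (-0.23 ± 0.06 SE, adjusted p = 0.0691). A second, dimmer probe set passed with both peptides in the fit of all probe sets, at -0.38 (adjusted p = 0.00635) and -0.39 (adjusted p = 0.00577). Leaving out single arrays ended the PTHrP call of the brightest probe set in 4 cases: control replicate 1 (adjusted p = 0.0686), control replicate 2 (adjusted p = 0.0709), PTHrP replicate 1 (adjusted p = 0.0681) and PTHrP replicate 2 (adjusted p = 0.0652). Averaging the gene's 4 probe sets, of which the other 2 were dim, gave -0.12 with PTHrP (adjusted p = 0.407).

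Slc36a4 (Entrez gene 234967) encodes a carrier of proline and tryptophan found on lysosomes and other membranes. Its signal was 494, 515 and 488 in controls, 564, 552 and 558 with PTH, and 565, 575 and 562 with PTHrP. The treated arrays all lay above the controls, and the groups of the 2 peptides overlapped. The means were 499 ± 13.9, 558 ± 6.18 and 567 ± 6.84 (SD, n = 3). The change of 0.18 ± 0.04 (SE, adjusted p = 0.048) with PTHrP passed narrowly, and that of 0.16 ± 0.04 (adjusted p = 0.0747) with PTH did not. The PTHrP call was lost when any 1 of the 9 arrays was left out, with adjusted p from 0.0709 to 0.129.

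Slc6a16 (Entrez gene 381884) encodes a member of the Slc6a family whose substrate is not known. Its signal was 1.00, 1.00 and 1.52 in controls, 1.00, 2.29 and 1.63 with PTH, and 6.40, 6.71 and 5.43 with PTHrP. The PTHrP arrays stood apart from the other 6, yet every array lay far below 29.0, the 40th percentile of all probe sets in these data, used here as the dim level. The change with PTHrP was 0.37 ± 0.05 (SE, adjusted p = 0.00418), and that with PTH was 0.04 ± 0.05 (adjusted p = 0.758). At such signals the size depends on the constant added before the log: adding 1 in place of 16 gave 1.73, and adding 64 gave 0.11, which no longer passed (adjusted p = 0.0989). A trended and robust variance ended the call as well (adjusted p = 0.0634).

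**Figure D1:**
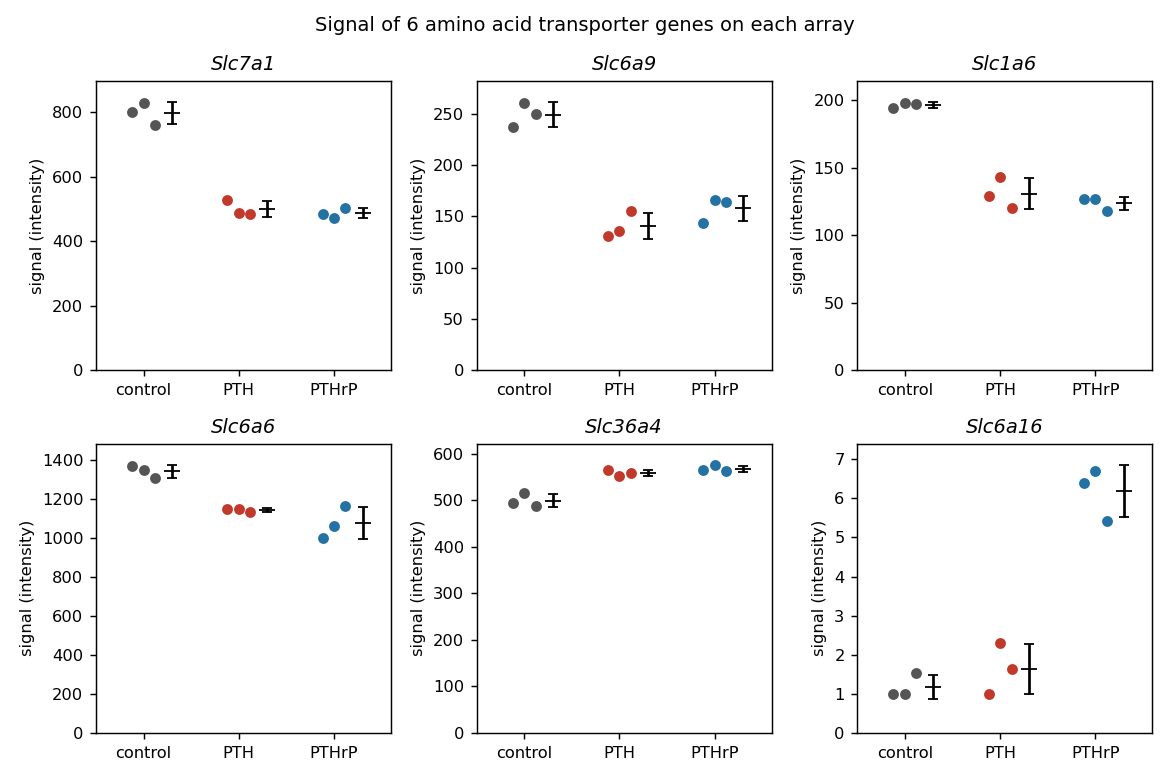
Signal (intensity, linear axis from 0) of the 6 transporter genes that passed with PTH or PTHrP, 1 panel a gene; each point is an array, and the bar beside it is the mean ± SD of the 3 arrays. For Slc7a1, Slc6a9, Slc1a6 and Slc6a6 all treated arrays lie below the controls, for Slc36a4 all lie above, and Slc6a16 stays under a signal of 7 on every array.

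The falls of Slc7a1, Slc6a9, Slc1a6 and Slc6a6 came beside other measures that also moved with treatment. The 10 smooth muscle and pericyte markers, all above the dim level, summed to between 26825 and 27523 in controls, 24953 to 25267 with PTH and 23964 to 25373 with PTHrP, so that all treated arrays lay below all controls. Of these 10 markers, 2 fell with both peptides, Myh11 (-0.38 and -0.45) and Pdgfrb (-0.31 and -0.35). The ratio of 3′ to 5′ actin probe signals, a gauge of RNA integrity, was 1.45 to 1.51 in controls, 1.59 to 1.65 with PTH and 1.52 to 1.61 with PTHrP, while that of Gapdh, in either treated group, overlapped the controls. With PTH, the sums of the preadipocyte and fibroblast markers (46709 to 47287 in controls, 45457 to 46370 with PTH) and of the endothelial markers (346 to 381 and 272 to 328) also lay below all controls, while with PTHrP both overlapped the controls (44297 to 47180 and 290.3 to 374). The part of these measures in the transporter results was not tested. In RNA from a whole culture, fewer cells of a type and less RNA per cell cannot be told apart.

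The labelled cell type was checked against its markers: all 10 measured of 12 listed adipocyte markers were above the dim level in controls, and their sums overlapped between groups, at 74717 to 77624 in controls, 76933 to 80638 with PTH and 74517 to 79114 with PTHrP. Of them, 1 changed, Cidec, which coats lipid droplets and rose by 0.28 with PTH and 0.31 with PTHrP. Among markers of other cells, 10 of 11 for preadipocytes and fibroblasts, 7 of 12 for macrophages, 3 of 10 for endothelium, 3 of 10 for epithelium, 2 of 9 for lymphocytes 5 of 8 for neurons and Schwann cells and 9 of 9 for dividing cells were above the dim level. No single gene of these lists passed except Lum, a matrix proteoglycan of fibroblasts, which fell by 0.37 with PTH. Over all genes, 12850 of 18193 were above the dim level in controls, so a marker above it does not by itself identify a cell type. The median signal per array was 48.2 to 52.6, and with 3 arrays a group precision is limited throughout.

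In the controls, 36 of the 60 transporter genes were above the dim level: 4 of 7 in Slc1a, 1 of 2 in Slc3a, 6 of 20 in Slc6a, 10 of 15 in Slc7a, 4 of 4 in Slc36a, 8 of 9 in Slc38a and 3 of 3 in Slc43a. Over all genes, 12850 of 18193 were above the dim level. Most Slc6a members, among them the dopamine (Slc6a3) and serotonin (Slc6a4) transporters, were below it, at 13.3 and 6.48. A signal depends on the probe set as well as on the RNA, so levels of different genes are read here only as above or below the dim level. Over the 36 genes, the SD between the 3 controls was 0.889% of the mean at the lowest (Slc38a2), 7.01% at the median and 32.9% at the highest (Slc38a3).

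Among the glutamate and neutral amino acid carriers of Slc1a, Slc1a5 encodes a glutamine exchanger. It gave 3517, 3351 and 2939 in controls, 3173, 3486 and 3321 with PTH and 3368, 3368 and 3163 with PTHrP. The 3 groups overlapped, and the changes were 0.03 (95% interval -0.14 to 0.20) and 0.02 (-0.15 to 0.19). Slc1a3, a glial-type glutamate carrier, had means of 986 ± 65.4, 1048 ± 82.3 and 1065 ± 120 in controls, PTH and PTHrP (SD, n = 3), and did not pass. Slc1a4, a carrier of serine and alanine, did not pass either, at -0.01 and 0.04 on its brightest probe set, while a second probe set read -0.27 with each peptide (adjusted p = 0.213 and 0.219).

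Of the cationic and large neutral carriers of Slc7a, Slc7a5 came closest to the threshold with PTH after Slc7a1. It encodes the leucine exchanger that pairs with the Slc3a2 heavy chain and feeds mTORC1. The controls gave 582, 613 and 670, the PTH arrays 474, 453 and 471, and the PTHrP arrays 417, 561 and 548. All treated arrays were lower than the controls, and the PTHrP arrays spread from below to above those with PTH. Neither change passed (-0.40 ± 0.11 SE, adjusted p = 0.0762, and -0.29 ± 0.11, adjusted p = 0.2). The change with PTH did pass with a pseudocount of 64, without the dimmest 40% of genes and with a trended and robust variance. It also passed with only the 2 groups compared and without PTHrP replicate 1. The change with PTHrP passed under no alternative. Slc3a2 itself gave 1650, 1713 and 1666 in controls, 1552, 1449 and 1496 with PTH and 1447, 1658 and 1587 with PTHrP, with changes of -0.16 (adjusted p = 0.188) and -0.10 (adjusted p = 0.436).

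Slc7a10 encodes a carrier of serine, glycine and alanine known as a surface marker of white adipocytes. Its signal was 597, 444 and 590 in controls, 749, 700 and 670 with PTH and 693, 753 and 614 with PTHrP. All treated arrays exceeded the controls, which were themselves spread widely, and the changes of 0.38 ± 0.12 (SE, adjusted p = 0.127) and 0.34 ± 0.12 (adjusted p = 0.184) did not pass. The other cationic carriers, Slc7a2 and Slc7a3, read -0.18 and -0.20 with PTH and -0.08 and -0.16 with PTHrP, and Slc7a7, which exports cationic amino acids with the Slc3a2 chain, read -0.20 and -0.25. None of the 3 passed with either peptide. Slc7a11, whose promoter is shown, had means of 71.3 ± 6.5, 66.9 ± 15.2 and 67.7 ± 5.37 in controls, PTH and PTHrP (SD, n = 3), overlapping in all groups, and changed by -0.09 (95% interval -0.37 to 0.19) and -0.06 (-0.34 to 0.22).

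The Slc36a carriers include Slc36a2, a proton-coupled glycine and proline carrier used as a surface marker of brown and beige adipocytes. It gave 4612, 4327 and 3889 in controls, 4207, 4490 and 4439 with PTH and 4380, 4156 and 4229 with PTHrP. The groups overlapped, and the changes were 0.04 (95% interval -0.12 to 0.19) and 0.00 (-0.16 to 0.15). Slc36a1, the lysosomal proton-coupled carrier, read -0.10 and -0.04, and Slc36a3 read -0.36 (adjusted p = 0.159) and -0.10. By gene order in RefSeq on GRCm38.p6, Slc36a3, Slc36a2 and Slc36a1 are direct neighbours, and of these 3 none passed.

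None of the 9 Slc38a genes passed with either peptide. Slc38a2 encodes the adaptive glutamine and alanine carrier that cells raise on amino acid shortage. Its brightest probe set gave 3330, 3302 and 3271 in controls, 3703, 3408 and 3579 with PTH and 3722, 3684 and 3400 with PTHrP. All treated arrays were higher, with changes of 0.11 (adjusted p = 0.327) and 0.12 (adjusted p = 0.271), yet a second probe set of the same gene read -0.25 (adjusted p = 0.119) and -0.27 (adjusted p = 0.0983), so no direction is given for it. Its neighbours Slc38a1 and Slc38a4 read -0.15 and 0.04 with PTH and 0.00 and -0.15 with PTHrP. Slc38a10, with control, PTH and PTHrP means of 2525 ± 32.3, 2414 ± 44.2 and 2361 ± 17.7 (SD, n = 3), read -0.06 and -0.10. Slc38a9, the lysosomal arginine sensor of mTORC1, read 0.01 and 0.04 and overlapped in all groups.

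In Slc43a, Slc43a3 came close to the threshold with both peptides. Placed in this family by sequence, it carries purine nucleobases rather than amino acids. Its arrays read 546, 576 and 466 in controls, 659, 686 and 631 with PTH and 654, 710 and 615 with PTHrP. All treated arrays were higher, and the changes of 0.31 ± 0.09 (SE, adjusted p = 0.0827) and 0.31 ± 0.09 (adjusted p = 0.0861) did not pass. It did pass, with both peptides, with a pseudocount of 64, without the dimmest 40% of genes, with a trended and robust variance, and with the replicate number as a block. The leucine facilitators Slc43a1 and Slc43a2 read -0.04 and -0.01 with PTH and -0.07 and 0.02 with PTHrP. Among the other Slc6a genes above the dim level, the creatine transporter Slc6a8 had means of 498 ± 14.7, 489 ± 14.0 and 495 ± 25.7 in controls, PTH and PTHrP (SD, n = 3) and read -0.03 and -0.01, with 95% intervals of -0.15 to 0.10 and -0.13 to 0.11.

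**Figure D2:**
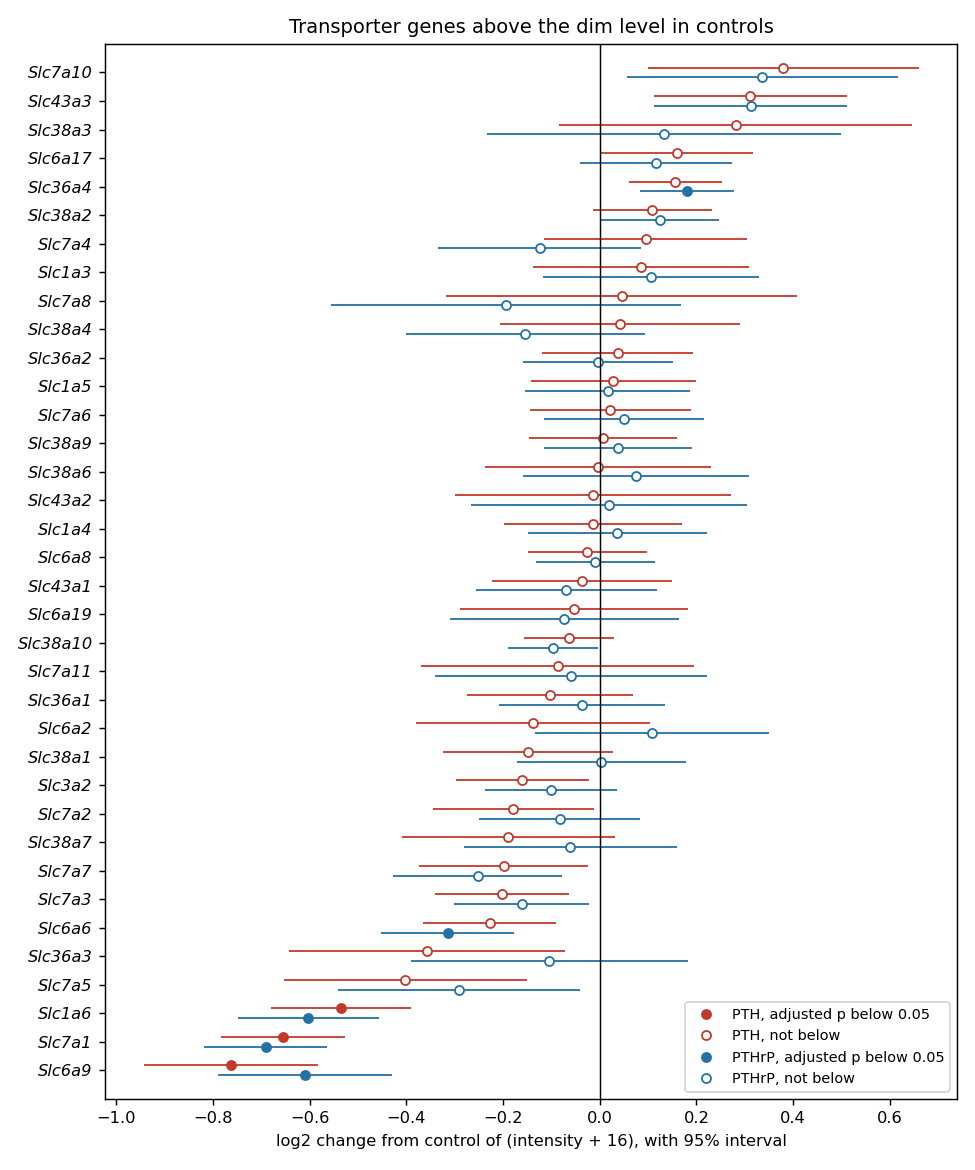
Log2 change from control of intensity + 16 (horizontal axis) for the 36 transporter genes above the dim level in controls, ordered by the change with PTH; points are estimates, filled where the adjusted p was below 0.05, and lines are 95% intervals. Slc6a9, Slc7a1 and Slc1a6 sit apart at the bottom with both peptides, and Slc7a10 lies highest with both.

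A change that did not pass is bounded by its interval. Of the 33 genes above the dim level that did not pass with PTH, 16 had a 95% interval lying wholly within 0.3 of no change on the log2 scale and 28 within 0.5. With PTHrP this held for 15 and 27 of 31. The widest such bound belonged to Slc7a10, at 0.66 with PTH and 0.62 with PTHrP. Of the 24 genes at or below the dim level, 1 passed, Slc6a16, which rose with PTHrP. Of all 18193 genes, 462 rose with PTHrP, and 425 of these were among the 12850 above the dim level in controls. The 3 opposite-strand genes, Slc36a1os, Slc6a19os and Slc7a6os, did not pass in any comparison.

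**Figure D3:**
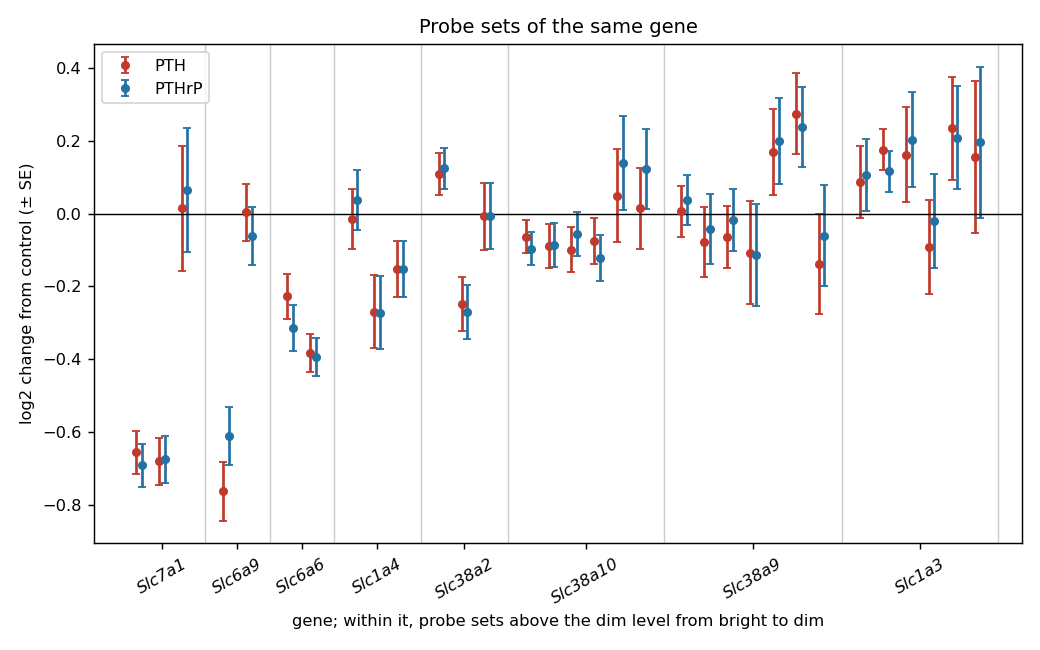
Log2 change from control (± SE, from the fit of all probe sets) for the probe sets above the dim level of 8 transporter genes, ordered within a gene from bright to dim. The brighter pair of Slc7a1 probe sets and both of Slc6a6 lie below 0, the second Slc6a9 probe set lies near 0, and the first and second Slc38a2 probe sets lie on opposite sides of it.

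PTH and PTHrP were compared with each other at the same dose and time. None of the 60 transporter genes differed by limma's adjusted p, as for 0% of all genes, and 4 of the 60 (730 of 18193) had an unadjusted p below 0.05. Those 4 were Slc6a16 (-0.33 as PTH minus PTHrP, adjusted p = 0.494), Slc6a11 (0.25), Slc6a2 (-0.25) and Slc7a4 (0.22), of which the first and second were below the dim level. For the genes that fell with both peptides, the difference and its 95% interval were 0.04 (-0.09 to 0.16) for Slc7a1, -0.15 (-0.33 to 0.03) for Slc6a9 and 0.07 (-0.08 to 0.21) for Slc1a6. For Slc6a6 it was 0.09 (-0.05 to 0.22) and for Slc36a4 -0.02 (-0.12 to 0.07). Slc6a6 and Slc36a4 passed against control with PTHrP and not with PTH, and this difference between the peptides did not pass. Over the 36 genes above the dim level, 22 intervals lay within 0.3 and 33 within 0.5, and the widest reached 0.60 (Slc7a8). Both peptides were set against the same 3 controls, so their changes from control are not independent.

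Genes that act on the same amino acids were read from the same fit. The gene lists were chosen with earlier results of these data known, so their counts are descriptive. The name of the amino acid response list states no cause, and what moved its genes was not tested. In this list of 27 genes, 26 were measured. Of these, 11 fell and 2 rose with PTH, and 8 fell and 2 rose with PTHrP, with median changes of -0.20 and -0.19. Over all genes, 3.14% fell and 2.96% rose with PTH, and 3.03% fell and 2.54% rose with PTHrP. The medians over all genes were -0.0027 and -0.005. Trib3, a pseudokinase that restrains the response, had means of 1185 ± 84.8 in controls, 659 ± 16.1 with PTH and 720 ± 28.5 with PTHrP (SD, n = 3), changes of -0.83 and -0.70. Chac1, which breaks down glutathione, changed by -0.79 and -0.67, Ddit3, a stress transcription factor, by -0.77 and -0.74, Mthfd2, a mitochondrial folate enzyme, by -0.54 and -0.50, and Nupr1, a stress-induced nuclear protein, by -0.46 and -0.47. Atf4 itself, named for its role, fell by 0.24 with each peptide, from 3114 ± 28.6 to 2643 ± 118 and 2639 ± 83.8 (SD, n = 3). The 2 that rose with both were Ddit4, an inhibitor of mTORC1 (0.50 and 0.55), and Cebpb, a partner of Atf4 named to complete the count (0.21 and 0.23). Slc7a1, which passed, and Slc7a5, Slc7a11, Slc3a2 and Slc38a2, which did not, are among the known targets of Atf4. They are examples rather than a full list, so they say nothing about such targets as a set. Whether Slc6a9 and Slc1a6, which fell with both peptides, are also targets was not examined.

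**Figure D4:**
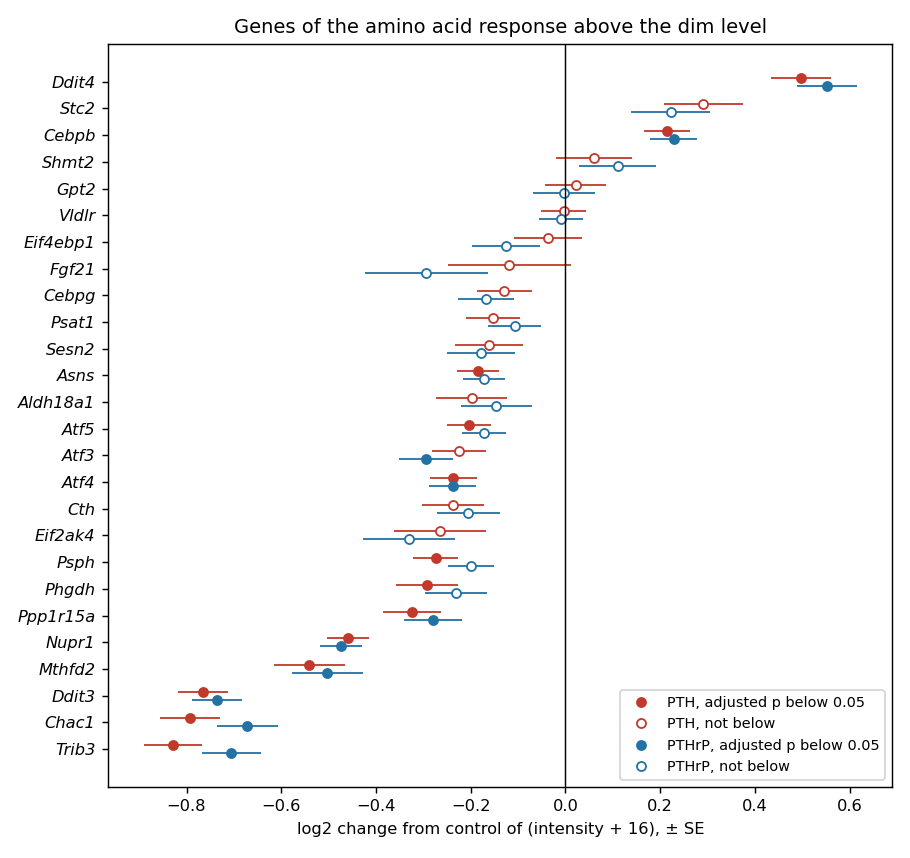
Log2 change from control of intensity + 16 (± SE) for the 26 measured genes of the amino acid response list, ordered by the change with PTH; filled points had an adjusted p below 0.05. Trib3, Chac1, Ddit3, Mthfd2 and Nupr1 lie lowest with both peptides, and Ddit4 lies highest.

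Of the aminoacyl-tRNA synthetases, which charge tRNAs with amino acids, 18 of 20 were measured, and 2 fell with PTH and 1 with PTHrP. These were Cars (-0.40 and -0.36), the cysteine enzyme, with both, and Tars (-0.25 with PTH, adjusted p = 0.0406), the threonine enzyme. Among 30 measured genes of amino acid sensing by mTORC1, 1 rose with PTH, Depdc5 (0.30), part of a complex that restrains mTORC1, and none passed with PTHrP. Of 22 measured genes of branched-chain amino acid breakdown, a main fate of leucine in adipocytes, none passed with either peptide. Their medians were -0.0022 and -0.0048, beside -0.0027 and -0.005 over all genes. With PTH 2.96% of all genes rose and 3.14% fell, and with PTHrP 2.54% rose and 3.03% fell.

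The shares of all genes that rose or fell, given above, stand beside the lists that follow as well. In glutamine, proline and arginine metabolism, 16 of 20 genes were measured. Nos3, a nitric oxide synthase that uses arginine, rose from 310 ± 20.5 to 407 ± 3.26 with PTH and 380 ± 9.18 with PTHrP (SD, n = 3), and Got1, an aspartate aminotransferase, rose with PTHrP (0.30, adjusted p = 0.0389). In cysteine and glutathione metabolism, 13 genes were measured, and 2 rose and 1 fell with each peptide. Gsr, which regenerates glutathione, rose by 0.53 and 0.61, and Gclc, of the enzyme that starts glutathione synthesis, rose by 0.32 and 0.30, while Chac1 fell. Of 21 measured carriers of amino acids or peptides outside the 7 families, Mfsd12, which takes part in cysteine import into lysosomes, fell (-0.22 and -0.25). Of 6 creatine genes, Ckb, the brain-type creatine kinase, fell (-0.35 and -0.43), beside the Slc6a8 values above.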

How the data were processed

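RNA from 9 samples was hybridised to Affymetrix mouse arrays after biotin labelling. The values are 1 intensity per probe set as deposited by the authors; no source used here states the background correction, summary method or scaling, and the linear scale was read from the range of the values, with the highest on each array between 17113 and 18614. Of 45101 probe sets, 34945 had 1 gene symbol in the platform annotation and gave 18193 genes; 932 with several symbols, 9160 with none and 64 array controls were left out. log2(intensity + 16) was fitted with limma 3.58.1 in R 4.3.3, with a mean for each group of 3 arrays and a two-sided test, with Benjamini-Hochberg adjustment across the genes of a comparison and a threshold of 0.05. The steps were tested on simulated data. Members and gene lists were chosen with earlier results of these data known. Every transporter could be named; full statistics went to those that passed, and levels were also given for the brightest of each family, a choice for naming alone, and each list names at most 6 genes that passed, by size of change. Atf4 and Cebpb are named beyond that limit and were chosen after their values were seen. Promoters came from RefSeq; proteins were not used here. The alternatives were other normalizations, pseudocounts, filters, variance models and probe set rules, the replicate number as a block, fitting only 2 groups, and leaving out each array.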

Additional observations from a re-analysis of the deposited data

How the results depend on the processing

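Under 18 alternatives the calls of Slc7a1, Slc6a9 and Slc1a6 kept their direction and passed with both peptides. All but the averaging of probe sets used the same brightest probe set of a gene. They could therefore not show the disagreement of the other Slc6a9 probe set, which read 0.00 with PTH and -0.06 with PTHrP. Averaging probe sets gave the smallest changes for Slc7a1 (-0.44 with PTH and -0.43 with PTHrP). Of 214 values of the 6 named genes under alternatives, 183 kept their side of the threshold, 21 lost it, 10 gained it and 0 reversed. Slc36a4 with PTHrP was lost in 12 of 18 (adjusted p 0.0125 to 0.147), and Slc6a6 with PTHrP in 7 of 18 (0.000772 to 0.407).

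The 0 rises with PTH became 1 under quantile normalization, median centring or the replicate block, 2 with a pseudocount of 64 or without the dimmest 40% of genes, and 3 with a trended and robust variance; leaving out 1 array gave 0 to 1 (Slc6a15 without control replicate 3). The 3 falls with PTH became 5 with a pseudocount of 64, a trended and robust variance or only the 2 groups compared, where Slc6a6 and Slc7a5 joined. They became 6 without the dimmest 40%, where Slc7a3 joined as well. The 2 rises with PTHrP became 1 with the mean of the probe sets or only the 2 groups compared, and 1 to 2 without 1 array; with a pseudocount of 64, without the dimmest 40% or with a trended and robust variance the count stayed at 2, with Slc43a3 in place of Slc6a16. The cause of these shifts was not tested. PTH against PTHrP stayed at 0 of 60 in all 18.

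Same-numbered samples did not deviate together (correlations -0.27 to 0.23, 2 of 9 above 0.1), and not every sample correlated best with its own number. The replicate block gave 4 falls with PTH, and 3 falls and 2 rises with PTHrP (Slc43a3 in place of Slc36a4, beside Slc6a16), and 672 and 575 calls over all genes in place of 1109 and 1013. Over all alternatives those calls ranged from 469 to 1762 and from 455 to 1672. A signal below the dim level limits Slc6a16, and 3 arrays a group limit all values.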
